A study of Mus musculus with 8 samples.

Results

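The genes described here are the 10 mouse genes of MHC class II antigen presentation: the chains of the presenting molecules (H2-Aa, H2-Ab1, H2-Eb1), the invariant chain (Cd74), the peptide exchange factor (H2-DMa, H2-DMb1, H2-DMb2), its inhibitor (H2-Oa, H2-Ob) and the transactivator (Ciita). They were chosen by name, and 9 of the 10 were among the 19778 genes with enough signal to be tested. The samples were ovarian tumours of female C57BL/6JTgMISIIR-TAg mice. In this line SV40 T antigen is driven from a promoter named MISIIR, after the type II receptor for Müllerian inhibiting substance, so every animal, control or treated, carried the transgene. At a tumour volume of about 500 mm3, 4 mice were given vehicle (0.5% hypermellose with 0.1% Tween 80) and 4 were given AZD1480, a small-molecule inhibitor of the kinases JAK1 and JAK2, at 30 mg/kg in that vehicle. Tumour tissue was collected 6 h later, and the total RNA of each tumour, labelled with the dye Cy3, was read on 1 array of its own (Agilent, one colour). The ages of the animals are not given in the labels. All levels below are log2 processed intensities minus the 75th percentile of their own array, so a value of 0 is the level of a probe at that percentile and a step of 1 is a doubling. Probes differ in efficiency, so each gene is compared between arrays only, never with another gene.

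MHC class II molecules display peptides from endocytosed and membrane proteins to CD4 T cells. The alpha and beta chains assemble in the endoplasmic reticulum with the invariant chain, which blocks the groove and directs the complex to endosomes. There cathepsins trim the invariant chain to the short fragment CLIP, H2-DM exchanges CLIP for antigenic peptide, and H2-O holds H2-DM back. Dendritic cells, B cells and macrophages make these proteins constitutively or on activation, and other cells can be induced by interferon gamma, which signals through JAK1 and JAK2 to the coactivator CIITA. CIITA does not bind DNA itself but docks onto factors already seated on the shared class II promoter, among them RFX on the X box and NF-Y on the Y box. The comparison asks whether transcripts of this pathway differ within hours of JAK inhibition in whole tumours.

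The shared promoter layout is shown first, because the X and Y boxes in a fixed order are what class II genes are known to have in common. RefSeq promoter windows on the GRCm38.p6 build, from 250 bases before to 50 bases after the transcription start, were held for 7 of the 10 genes: H2-Aa, H2-Eb1, H2-DMa, H2-DMb1, H2-DMb2, H2-Oa and H2-Ob. Each stretch below is 57 bases, 5′ to 3′ on the strand of the gene. The capitals mark TGATTGG, the inverted CCAAT core of the Y box, and, where present, GNAAC, letters of the X box, 20 to 30 bases before it. The spacing was set after reading the sequences. H2-Aa lies at chr17:34287862-34287918 on the minus strand, H2-Eb1 at chr17:34305761-34305817, H2-DMb1 at chr17:34153083-34153139, H2-DMb2 at chr17:34145112-34145168, H2-Oa at chr17:34092289-34092345 and H2-Ob at chr17:34238801-34238857, the last 5 on the plus strand.
H2-Aa: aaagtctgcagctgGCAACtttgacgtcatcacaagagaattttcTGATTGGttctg
H2-Eb1: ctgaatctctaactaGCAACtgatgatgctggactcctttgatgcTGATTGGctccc
H2-DMb1: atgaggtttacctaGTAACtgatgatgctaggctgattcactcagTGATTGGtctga
H2-DMb2: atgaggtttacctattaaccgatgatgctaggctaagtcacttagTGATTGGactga
H2-Oa: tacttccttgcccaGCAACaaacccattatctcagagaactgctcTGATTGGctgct
H2-Ob: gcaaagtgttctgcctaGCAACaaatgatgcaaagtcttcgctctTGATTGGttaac

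TGATTGG, searched on both strands, was found in 6 of the 7 class II promoters, and in 2568 of 32851 promoter windows of all genes (7.82%). It began between 45 bases (H2-Oa) and 92 bases (H2-DMb2) before the transcription start. GNAAC followed by TGATTGG at that spacing was found in 5 class II promoters, those of H2-Aa, H2-Eb1, H2-DMb1, H2-Oa and H2-Ob, and in 106 of all windows (0.323%). The spacing was set on these class II sequences, so their count cannot be weighed against that of all windows. The gap between both motifs was 26 bases in H2-Aa, H2-DMb1 and H2-Oa, 25 in H2-Eb1 and 23 in H2-Ob. H2-DMb2, the paralog of H2-DMb1, held TGATTGG without GNAAC. TTCNNNGAA, the palindrome bound by STAT dimers, was in the promoter of H2-DMb2 alone among the 7 (8.3% of all windows), and the core of the interferon-stimulated response element (GAAA repeated after a gap of 2 bases) was in none of the 7 (3.44% of all windows). A match is a description of these letters and says nothing of occupancy in the tumours.

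On the mm9 build of the array files, the probes of 8 of the genes lay within 221 kb of chromosome 17, from position 34232033 (H2-Oa) to 34453134 (H2-Eb1). Those of Ciita and Cd74 lay on chromosome 16 from 10526568 to 10526627 and on chromosome 18 from 60972075 to 60972132. The exon or UTR hit by a probe is not given in the files used here.

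No class II gene passed limma's test at an adjusted p under 0.05. Neither did any other of the 19778 genes (0%), of which 689 (3.48%) had an unadjusted p under 0.05 and 348 (1.76%) were lower in AZD1480 with such a p. No class II gene was among these 348. All 9 measured class II genes had a log2 difference (AZD1480 minus vehicle) below 0, between -0.96 (H2-DMb1) and -0.32 (Ciita and H2-Oa), with a median of -0.50, where 43.7% of all genes were below 0 and the median of all genes was 0.04. The AZD1480 and vehicle arrays overlapped for each of the 9. Among all genes, 275 (1.39%) were lower in AZD1480 without overlap. The tests measure the spread between 4 tumours per group, each from its own mouse, and the smallest p an exact permutation test of 4 against 4 arrays can give is 0.0286.

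**Figure D1:**
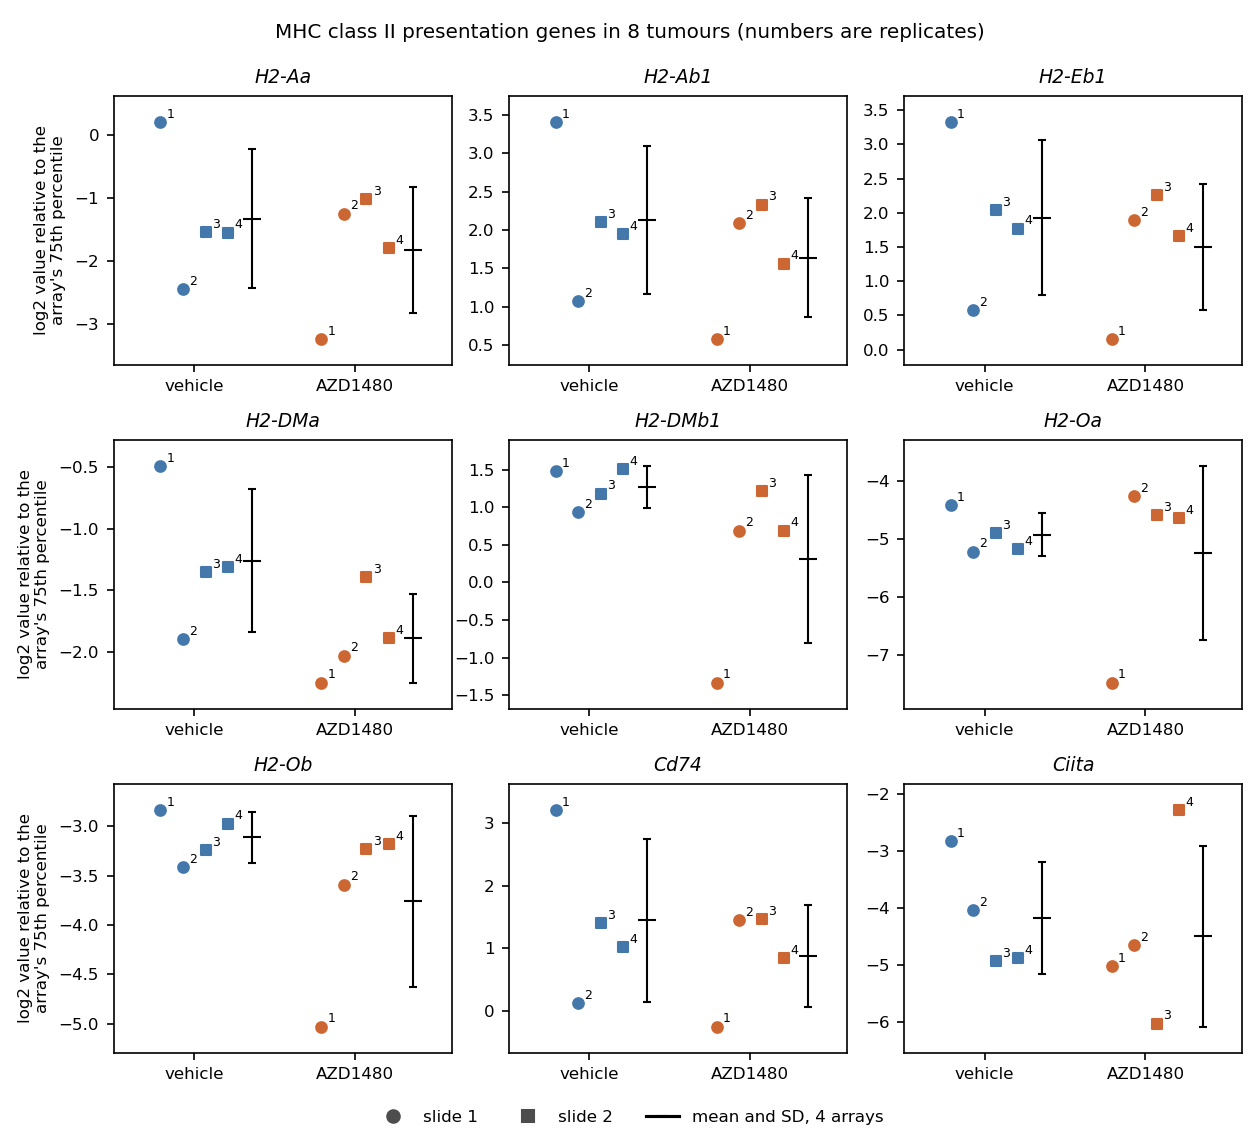
Log2 level relative to the 75th percentile of the array (vertical axis, a separate range for each gene) of 9 class II genes in 4 vehicle and 4 AZD1480 tumours; numbers are replicates, circles slide 1, squares slide 2, and bars the mean and SD of 4 arrays. AZD1480 replicate 1 is the lowest array for 8 of the 9 genes, and vehicle replicate 1 the highest for 6.

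**Figure D2:**
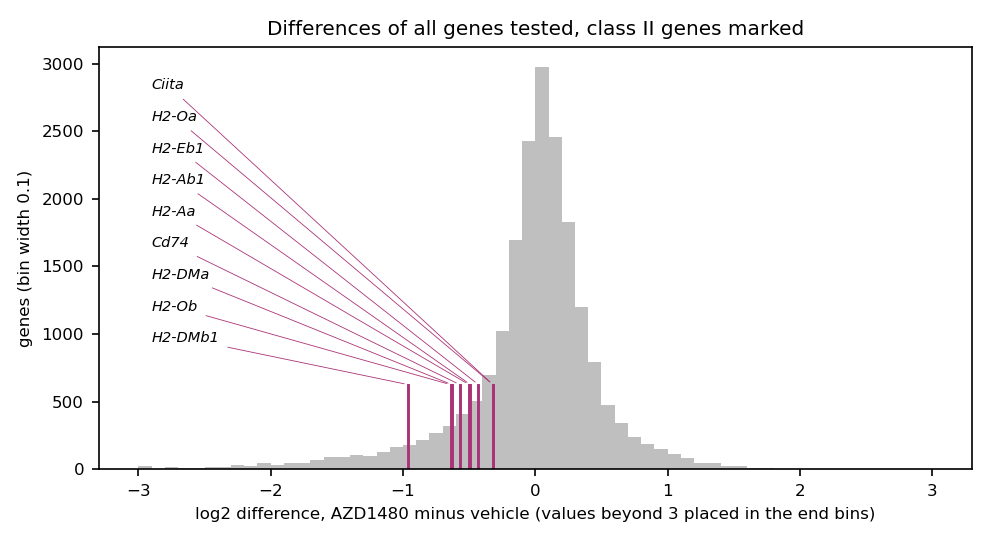
Histogram of the log2 difference, AZD1480 minus vehicle (horizontal axis), of 19778 genes in bins of 0.1 (vertical axis, genes), with the 9 class II genes as marked lines. The marked genes lie between -0.96 and -0.32, left of the median of all genes at 0.04, in a part of the histogram that other genes fill too.

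H2-Aa encodes the alpha chain of the classical I-A molecule. Its level was 0.21, -2.45, -1.54 and -1.55 in vehicle replicates 1 to 4 and -3.24, -1.25, -1.02 and -1.80 in AZD1480 replicates 1 to 4. Vehicle replicate 1 stood above and AZD1480 replicate 1 below the other 6 arrays, and AZD1480 replicates 2 and 3 were above 3 of the 4 vehicle arrays. The means were -1.33 ± 1.11 and -1.83 ± 1.00 (SD, n = 4 each), a difference of -0.50 ± 0.66 (SE; 95% interval -2.03 to 1.04; limma adjusted p = 0.978; two-sided exact permutation p = 0.543).

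H2-Ab1 encodes the I-A beta chain, which carries most of the polymorphism of the molecule. Its levels were 3.41, 1.07, 2.10 and 1.95 in vehicle and 0.58, 2.09, 2.33 and 1.56 in AZD1480. The order of the arrays at both ends was that of H2-Aa, with vehicle replicate 1 highest, vehicle replicate 2 next to lowest and AZD1480 replicate 1 lowest. The means were 2.13 ± 0.97 and 1.64 ± 0.78 (SD, n = 4 each) and the difference -0.49 ± 0.56 (SE; 95% interval -1.78 to 0.80; limma adjusted p = 0.977; exact permutation p = 0.429). A second probe, which shares 51 bases with the first at 1 mismatch and carries the H2-Ab1 name only in the files of slide 2, gave the same difference, -0.49 ± 0.57.

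H2-Eb1 encodes the beta chain of I-E. Its levels were 3.33, 0.58, 2.04 and 1.77 in vehicle and 0.16, 1.90, 2.26 and 1.66 in AZD1480, again with replicate 1 of each group at opposite ends. The difference was -0.43 ± 0.65 (SE; 95% interval -1.94 to 1.07; limma adjusted p = 0.98). C57BL/6 mice are known not to make the I-E alpha chain, and the H2-Ea probe was well above background on 0 of the 8 arrays.

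Cd74 encodes the invariant chain, the chaperone of newly made class II chains. It measured 3.22, 0.13, 1.41 and 1.02 in vehicle and -0.25, 1.45, 1.47 and 0.85 in AZD1480. The spread within vehicle, an SD of 1.30, exceeded the difference of -0.57 ± 0.68 (SE; 95% interval -2.14 to 1.01; limma adjusted p = 0.977; exact permutation p = 0.543). For H2-Aa and H2-Ab1, H2-Eb1 and Cd74 alike, the 95% interval ran from -1.78 or lower to 0.80 or higher, so a change of either sign was not distinguishable with 4 tumours per group.

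H2-DMa and H2-DMb1 encode the alpha and beta chains of H2-DM. H2-DMa measured -0.49, -1.90, -1.35 and -1.31 in vehicle and -2.25, -2.03, -1.39 and -1.89 in AZD1480. All 4 AZD1480 arrays were below the vehicle mean, but vehicle replicate 2 lay among them. The means were -1.26 ± 0.58 and -1.89 ± 0.36 (SD, n = 4 each) and the difference -0.63 ± 0.32 (SE; 95% interval -1.38 to 0.12; limma adjusted p = 0.977; exact permutation p = 0.0857).

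H2-DMb1 measured 1.48, 0.93, 1.18 and 1.51 in vehicle and -1.33, 0.69, 1.21 and 0.69 in AZD1480. The vehicle arrays lay close together, with an SD of 0.28. Of the AZD1480 arrays, 3 of the 4 were below every vehicle array, while AZD1480 replicate 3 was within their range. The difference of -0.96 ± 0.52 (SE; 95% interval -2.16 to 0.24), a 1.95-fold lower level, had a limma adjusted p of 0.977 and an exact permutation p of 0.0857. Without AZD1480 replicate 1 it was -0.41 ± 0.22. H2-DMb2, the second beta chain gene, was not well above background on any of the 8 arrays, with processed intensities of 4.28 to 19.3, and no difference is given for it.

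H2-Oa and H2-Ob encode H2-O, the inhibitor of H2-DM, found mainly in B cells, thymic epithelium and some dendritic cells. H2-Oa was dim: -4.41, -5.21, -4.89 and -5.16 in vehicle and -7.47, -4.25, -4.58 and -4.63 in AZD1480. AZD1480 replicate 1 was not well above background there, and the other 3 AZD1480 arrays were each above at least 3 of the 4 vehicle arrays. The difference of -0.32 ± 0.69 (SE; limma adjusted p = 0.985) became 0.43 ± 0.24 without that array, with a limma adjusted p of 0.997.

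H2-Ob measured -2.83, -3.41, -3.24 and -2.97 in vehicle and -5.03, -3.59, -3.23 and -3.18 in AZD1480. AZD1480 replicates 3 and 4 were inside the vehicle range, replicate 2 just below it, and replicate 1 far below. The difference was -0.64 ± 0.41 (SE; 95% interval -1.60 to 0.31; limma adjusted p = 0.977). A second H2-Ob probe gave -1.38 ± 0.90, with AZD1480 replicate 1 at -7.86 and not well above background. One more probe, named H2-Ob only in the slide 2 files, was dim on all 8 arrays.

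Ciita encodes the class II transactivator. Its probe read -2.83, -4.04, -4.92 and -4.88 in vehicle and -5.01, -4.64, -6.02 and -2.28 in AZD1480. The highest of the 8 arrays was AZD1480 replicate 4 and the lowest AZD1480 replicate 3, so the treated group spanned the whole range. The difference was -0.32 ± 0.82 (SE; 95% interval -2.23 to 1.59; limma adjusted p = 0.985; exact permutation p = 0.714).

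The sequence of the Ciita probe bears on how far this reading can be taken. Of its 60 bases 39 are A and 15 are C, and its last 30 bases are an uninterrupted simple repeat. A 16-base run of that repeat was held by 4 other probes of the array, among them those of Cbln2, Tenm1 and Prg4. Cbln2 was well above background on all 8 arrays, and Tenm1 on 7. Across the 8 arrays the Ciita probe correlated with the Cbln2 probe at r = 0.79 and with the Tenm1 probe at r = 0.776, as a description of points that share arrays and the repeat. Cbln2 measured -3.20, -4.36, -2.77 and -4.83 in vehicle and -5.51, -4.70, -5.96 and -2.16 in AZD1480, highest and lowest on the arrays where Ciita was. Prg4 was well above background on 1 array. Whether the Ciita probe reads its own transcript in these tumours was not tested.

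The chains and Cd74 varied together from tumour to tumour. Over the 8 arrays, Pearson's r was 0.993 between H2-Aa and H2-Ab1, 0.987 between H2-Ab1 and H2-Eb1, 0.988 between H2-Ab1 and Cd74 and 0.974 between H2-Eb1 and Cd74. H2-DMb1 and H2-Ob were alike at 0.977, and H2-DMa followed Cd74 at 0.87. Against the mean of the other class II genes, r was 0.798 to 0.947 for 8 genes and 0.244 for Ciita. With the group means subtracted first the values were 0.781 to 0.951 and 0.209, so the likeness was present among tumours of one treatment. These are descriptions over 8 arrays that share labelling and scaling, and replicate 1 of both groups sets much of their range.

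**Figure D3:**
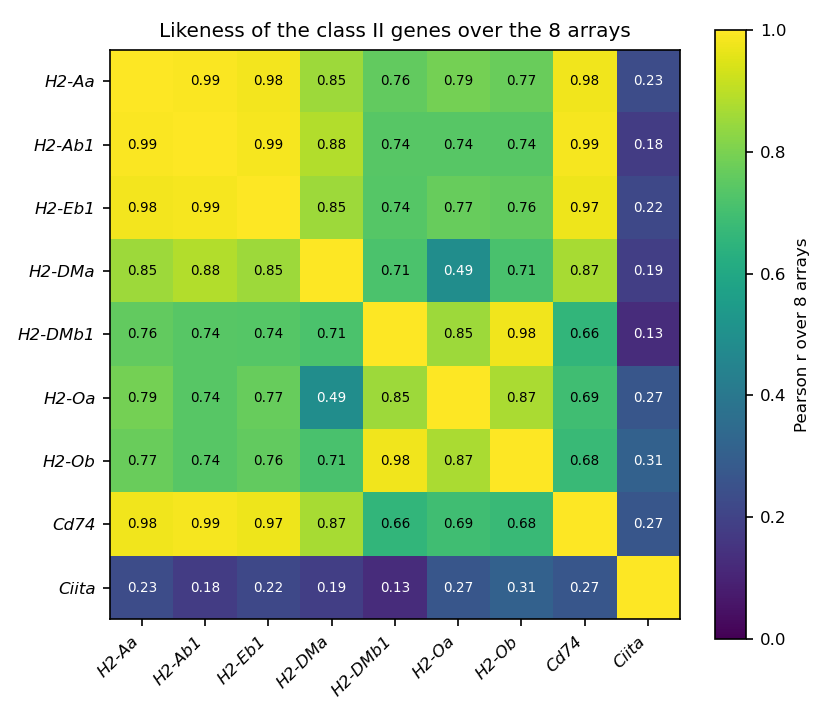
Pearson's r over 8 arrays for each pair of class II genes, as a colour scale from 0 to 1 with the value in each cell. Cd74 and the chain genes H2-Aa, H2-Ab1 and H2-Eb1 form a block at 0.97 or higher, while Ciita stays between 0.13 and 0.31 with each of the others.

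Among all genes tested, those most like the mean class II profile over the 8 arrays were Cbx2 (r = 0.967), Sfn (0.954), Itgb7 (0.950), Zbtb42 (0.946), the second H2-Ab1 probe under its older name LOC641240 (0.945), Npc1 (0.941), Cabin1 (0.940) and Plekhb2 (0.939). Cbx2 is a Polycomb subunit, Sfn the epithelial 14-3-3 sigma protein, and Itgb7 a leukocyte integrin chain. With group means subtracted the nearest were Kcnf1 (0.980), Rbp2 (0.969), Krt7 (0.965), Cbx2 (0.962) and Dapk2 (0.958). Krt7, a keratin of glandular epithelium, measured 2.20, -0.26, 1.29 and 0.90 in vehicle and -1.26, 1.26, 1.66 and 1.86 in AZD1480. Its vehicle arrays stood in the same order as those of H2-Eb1.

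The mean class II profile, each gene centred on its own mean, was 1.28, -0.43, 0.14 and 0.09 in vehicle and -1.49, 0.09, 0.16 and 0.16 in AZD1480. Thus 1 array of each group lay far from the rest in opposite directions, and 5 of the other 6 lay between 0.09 and 0.16. That closeness holds for the mean only. The mean includes the Ciita probe, which was -6.02 on AZD1480 replicate 3 and -2.28 on AZD1480 replicate 4. Over those 6 arrays single genes ranged more widely, H2-Aa by 1.43 and H2-Eb1 by 1.68. Vehicle replicate 1 was the highest array for 6 of the 9 genes, against 7.17% of all genes, and AZD1480 replicate 1 was the lowest for 8 of the 9, against 23.7%. Both held for 6 genes. On AZD1480 replicate 3, 8 of the 9 genes were within the range of the vehicle arrays, and 5 of the 9 were higher on AZD1480 replicate 2 than on vehicle replicate 2. The replicate numbers are not pairs, and vehicle replicate 2 was the lowest vehicle array for each of the 9 genes but Ciita. The share of all genes was not counted for either, so no result is drawn from these counts.

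AZD1480 replicate 1 also stood apart over all genes: its median correlation with the other arrays was 0.887, against 0.958 to 0.972 for the others. Without it, 7 of the 9 class II genes were below 0 (46.7% of all genes), with a median of -0.14, and none was among the 2.12% of genes lower at an unadjusted p under 0.05. Without vehicle replicate 1, 5 of the 9 were below 0 and the median was -0.07. Leaving out both, a choice made after seeing the data and from these values, left 3 of the 9 below 0 (H2-DMa, H2-DMb1 and H2-Ob) and a median of 0.30. H2-DMa was then -0.25 ± 0.26 and H2-DMb1 -0.34 ± 0.24, H2-Aa 0.49 ± 0.34 and Cd74 0.40 ± 0.38 (SE, n = 3 each), with a limma adjusted p of 0.996 for each of the 9. The range of H2-Aa over arrays shrank from 3.45 to 1.43, that of H2-DMb1 from 2.84 to 0.82 and that of Cd74 from 3.47 to 1.34, while that of Ciita was 3.74 both times.

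**Figure D4:**
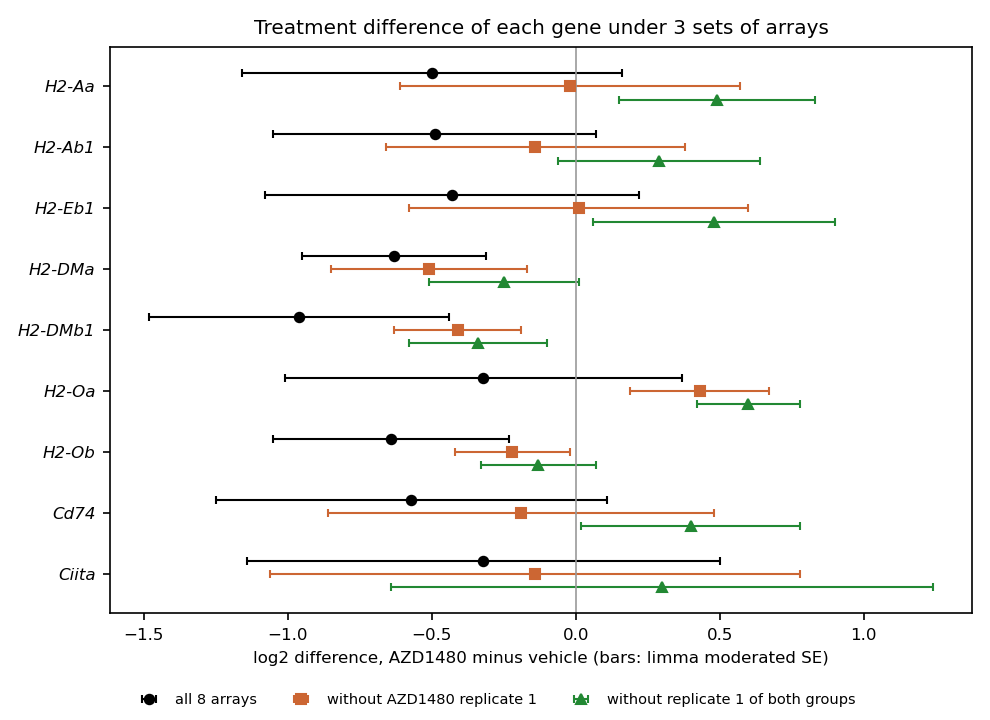
Log2 difference, AZD1480 minus vehicle (horizontal axis; bars are limma's moderated SE), of 9 class II genes over all 8 arrays, without AZD1480 replicate 1, and without replicate 1 of both groups. With all arrays each point is below 0; without both arrays H2-DMa, H2-DMb1 and H2-Ob remain below 0 and the other 6 are above it.

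The arrays came on 2 slides, each with 2 vehicle and 2 AZD1480 tumours, and both outlying arrays were on slide 1. On slide 1 alone, all 9 class II genes were below 0 (45.7% of all genes) with a median of -1.08. On slide 2 alone, 5 of the 9 were below 0 (46.4% of all genes) with a median of -0.06. H2-Aa differed by -1.13 on slide 1 and 0.14 on slide 2, Cd74 by -1.08 and -0.06, H2-DMb1 by -1.52 and -0.40, H2-DMa by -0.94 and -0.31, H2-Ob by -1.19 and -0.10, and Ciita by -1.39 and 0.75. The term for the difference between slides had a limma adjusted p of 0.984 for each of the 9 genes. It passed for 0 of all genes, with 1.1% showing a smaller fall on slide 2 at an unadjusted p under 0.05, and no class II gene was among those.

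Genes for the factors that seat CIITA on the promoter differed by -0.24 to 0.20. All 9 listed genes (RFX and NF-Y subunits, Creb1 and the acetyltransferase genes Kat2b and Ep300) were measured. Of these 4 were below and 5 above 0, with a median of 0.01 (-0.10 without AZD1480 replicate 1), and 0 passed limma's adjusted threshold or an unadjusted p under 0.05. Rfx5, whose product binds the X box, differed by 0.15 ± 0.27 (0.37 without AZD1480 replicate 1), Rfxank, its partner, by -0.24 ± 0.19, and Nfyc, an NF-Y subunit, by 0.18 ± 0.16 (SE).

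In the pathway from interferon gamma to Ciita, 9 of 10 listed genes were measured. With all 8 arrays, 6 were below 0 (43.7% of all genes), with a median of -0.34. Without AZD1480 replicate 1, 8 of the 9 were below 0 (46.7% of all genes), with a median of -0.22. On slide 1 alone 6 of the 9 were below 0 (45.7% of all genes), and on slide 2 alone 9 (46.4%). With all 8 arrays none passed limma's adjusted threshold or an unadjusted p under 0.05, in this list or in the next 2. Ifng itself was not well above background on 7 arrays. Irf1, a factor that acts at the inducible Ciita promoter, measured 2.97, 2.42, 2.57 and 2.70 in vehicle and 2.35, 2.01, 2.61 and 2.32 in AZD1480, a difference of -0.34 ± 0.19 with overlapping groups. Jak2, a target of the drug, differed by -0.58 ± 0.37 (SE; limma adjusted p = 0.977 for both genes). Jak2 was 1.34 in AZD1480 replicate 1 and 2.53 to 3.36 on the other 7 arrays, and differed by -0.22 ± 0.19 without that array.

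The endosomal proteases and reductase that prepare peptides and cut the invariant chain were all measured, 10 of 10, with 8 below 0, and a median of -0.05 (-0.02 without AZD1480 replicate 1). Ctss, cathepsin S, which makes the last cut of the invariant chain, was 1.46 in AZD1480 replicate 1 and 2.88 to 3.66 on the other 7 arrays, a difference of -0.53 ± 0.44, and of -0.11 without that array. Ctsh, an aminopeptidase, differed by -0.58 ± 0.55, and by -0.04 ± 0.32 without it. Ctsl, cathepsin L, differed by 0.15 ± 0.23, and by 0 without it. Of the turnover and costimulation genes 8 of 10 were measured and 6 were below 0, with a median of -0.25. Without AZD1480 replicate 1, 4 of the 8 were below 0 and the median was 0.06. Cd40, the receptor through which T cells activate antigen-presenting cells, differed by -0.52 ± 0.24 and Cd274, encoding PD-L1, by -0.45 ± 0.27 (SE). These 2 differences were larger without AZD1480 replicate 1, at -0.67 ± 0.22 for Cd40 and -0.64 ± 0.24 for Cd274 (SE; limma adjusted p = 0.997 for each).

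The class I presentation genes lie partly among the class II genes, and the probes of Psmb9, Tap1, Psmb8 and Tap2 fall between those of H2-DMb1 and H2-Ob on chromosome 17. All 17 listed class I genes were measured, all 17 were below 0, the median was -0.69, and 0 passed the adjusted threshold. The median was -0.97 on slide 1, -0.48 on slide 2 and -0.61 without AZD1480 replicate 1, which was the lowest array for 9 of the 17. The chain gene H2-K1 differed by -2.33 on slide 1 and -0.61 on slide 2, and Tap1 by -1.05 and -0.13. Of the 17, 11 were lower at an unadjusted p under 0.05 (1.76% of all genes) and 7 were lower without overlap between groups (1.39% of all genes). The same counts were 0 of 9 for class II. This list was known from earlier results to be lower, so its count is not independent evidence. Psmb8, an immunoproteasome subunit, was 2.56, 2.27, 2.33 and 2.26 in vehicle and 1.33, 1.53, 1.47 and 0.95 in AZD1480, without overlap. Its difference was -1.03 ± 0.18 (SE; limma adjusted p = 0.845), and it was -0.99 on slide 1, -1.08 on slide 2 and -1.04 without AZD1480 replicate 1. Psmb9, the neighbouring subunit, differed by -0.94 ± 0.16 (limma adjusted p = 0.845).

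Nlrc5 encodes the class I counterpart of CIITA, a NOD-like receptor that docks onto the same RFX complex at class I promoters. It measured -1.04, -1.31, -1.18 and -1.24 in vehicle and -5.13, -3.12, -2.62 and -2.69 in AZD1480. Every AZD1480 array was below every vehicle array, by a difference of -2.20 ± 0.53 (SE; 4.59-fold; limma adjusted p = 0.977), and of -1.62 without AZD1480 replicate 1. Of the 14 class I genes with a promoter window, 7 held TGATTGG and 0 held GNAAC before it at the class II spacing. That spacing was set on the class II sequences, so this search cannot compare class I with class II promoters. TTCNNNGAA was in 1 of the 14 (Psmb8) and the interferon-stimulated response element core in 3 (B2m, Erap1 and H2-T23). Whether the class I and class II genes differed in their response was not tested.

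In whole tumour tissue, fewer class II-bearing cells and less RNA per cell cannot be told apart, so the markers of the cells that carry class II are given beside it. Of 18 macrophage and monocyte markers 16 were measured. Of these 14 were below 0, with a median of -0.53 and 2 of the 16 at an unadjusted p under 0.05 (Mrc1 and Fcgr1). Among all genes 43.7% were below 0 and 1.76% were lower at an unadjusted p under 0.05. The same shares apply to the counts over all arrays in each marker list below. Their mean level was 0.15 to 0.43 in vehicle and -1.33 to 0.32 in AZD1480, and without AZD1480 replicate 1 the median was -0.12. Csf1r, the receptor of macrophage growth factor, measured 2.64, 2.24, 2.93 and 2.82 in vehicle and 1.46, 2.53, 2.97 and 2.29 in AZD1480. AZD1480 replicate 1 was the lowest array for 13 of the 16 markers, as it was for class II, but vehicle replicate 1 was the highest for 0 of the 16. By mean level, the pan-leukocyte and the T and NK cell lists, given below, had both extremes. In the T and NK cell list, vehicle replicate 1 (-3.19) was close to vehicle replicate 2 (-3.23). The epithelial list, also below, was highest in vehicle replicate 1 (0.87) and next to lowest in AZD1480 replicate 1 (-1.19), so this order was not particular to leukocyte lists. The dendritic cell list and the B and plasma cell list were lowest in AZD1480 replicate 1 (-4.01 and -5.18) but highest in AZD1480 replicate 4 (-2.06 and -3.43).

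Dendritic cell markers were measured for 13 of 14 genes, 7 below 0, with a median of -0.22, mean levels of -2.58 to -2.28 in vehicle and -4.01 to -2.06 in AZD1480, and a median of 0.15 without AZD1480 replicate 1. Flt3, the receptor for the dendritic cell growth factor, differed by 0.21 ± 0.35 (0.33 without that array) and Itgax, encoding CD11c, by -0.58 ± 0.71 (0.02 without it). Clec10a, a lectin of dendritic cells and macrophages, was the 1 gene at an unadjusted p under 0.05, with -1.20 ± 0.47 (SE), and -0.77 without that array.
B and plasma cell markers were measured for 11 of 12 genes, with 5 below 0 and a median of 0.08 (0.33 without AZD1480 replicate 1). Mean levels were -4.53 to -3.86 in vehicle and -5.18 to -3.43 in AZD1480. The differences of the 11 genes ran from -1.14 to 0.47. Ms4a1 (CD20) differed by 0.08 ± 0.58 (0.33 without AZD1480 replicate 1) and Cd79a by 0.34 ± 0.32.
Pan-leukocyte markers were all below 0, 8 of 8, with a median of -0.52 and of -0.25 without AZD1480 replicate 1. Their mean level was -1.33, -2.17, -1.89 and -1.64 in vehicle and -2.94, -2.09, -1.66 and -2.39 in AZD1480, highest in vehicle replicate 1 and lowest in AZD1480 replicate 1 as for class II. Ptprc, encoding CD45, differed by -0.69 ± 0.40 (SE), and by -0.34 without AZD1480 replicate 1. No marker in these 4 lists passed the adjusted threshold. Their part in the class II values was not tested.

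The class II molecules are read by CD4 T cells and bound by LAG3. Of 12 T and NK cell genes 8 were measured, 5 below 0, with a median of -0.33. Without AZD1480 replicate 1, 4 of the 8 were below 0 and the median was -0.04. Their mean level was -3.19, -3.23, -3.56 and -3.67 in vehicle and -4.38, -3.55, -3.45 and -3.44 in AZD1480, again highest in vehicle replicate 1 and lowest in AZD1480 replicate 1. Cd4 measured -0.36, -0.28, -0.38 and -0.26 in vehicle and 0.06, -0.11, -0.13 and -0.58 in AZD1480, and the difference was 0.13 ± 0.17 (0.05 without AZD1480 replicate 1). Lag3 differed by 0.16 ± 0.15 (SE; 0.09 without that array). The part of these genes in the class II values was not tested. Cd3g, Cd8a, Ncr1 and Klrb1c were too dim to be tested.

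**Figure D5:**
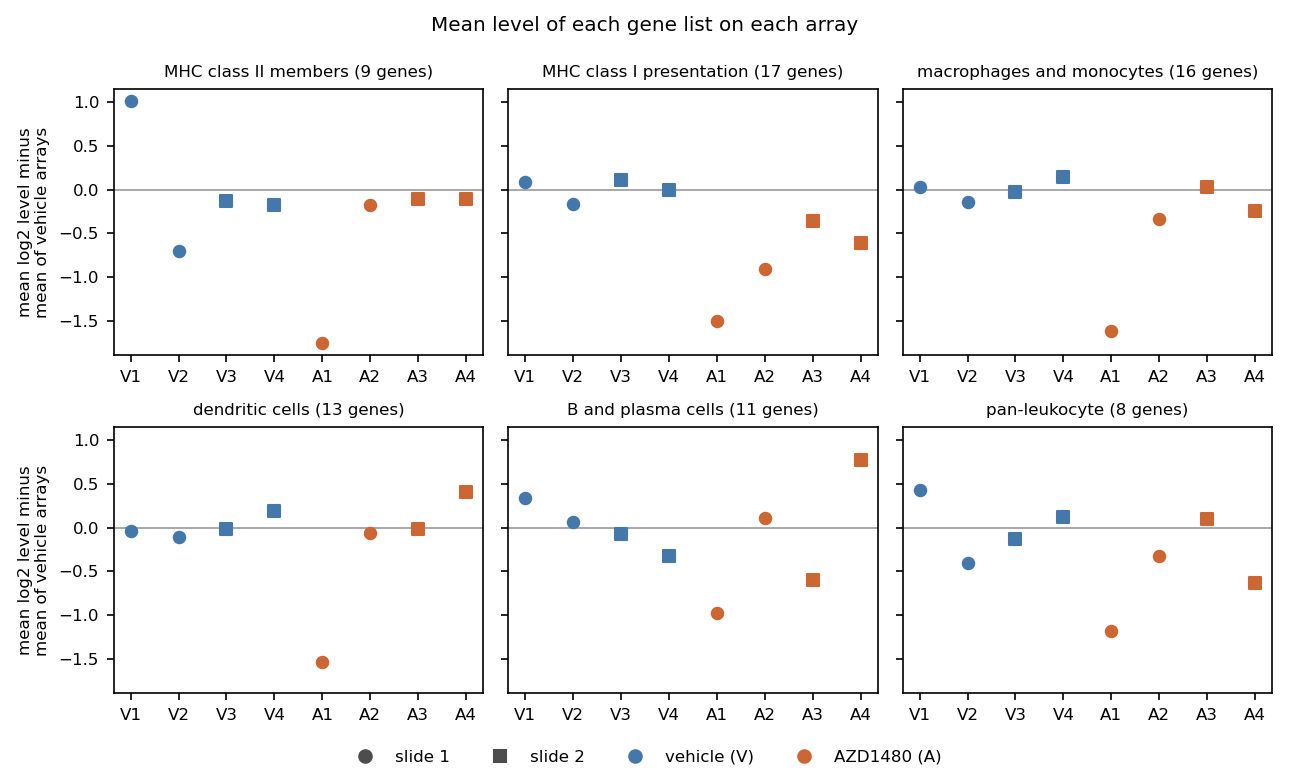
Mean log2 level of 6 gene lists on each array minus the mean of the 4 vehicle arrays (vertical axis, the same for each list; V vehicle, A AZD1480, numbers are replicates). Class II and the pan-leukocyte list are highest in V1 and lowest in A1, the macrophage list is lowest in A1 without being highest in V1, and the class I list is below the vehicle arrays on all 4 AZD1480 arrays.

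The labelled tissue was checked against epithelial markers, all 12 of which were measured. Their mean level was 0.87, -1.07, 0.63 and -0.67 in vehicle and -1.19, -1.25, -0.13 and -0.31 in AZD1480. It was highest in vehicle replicate 1 and lowest in AZD1480 replicate 2, with AZD1480 replicate 1 next to lowest. Of the 12, 11 were below 0 with a median of -0.69. In limma 0 passed the adjusted threshold and 1 had an unadjusted p under 0.05. Epcam, the epithelial adhesion molecule, ranged from -4.54 to -0.18 within vehicle alone, with vehicle replicate 1 the highest of the 8 arrays. Oviduct cilia markers, 8 of 8 measured, stood at -4.00 in AZD1480 replicate 1 and at 1.68 to 2.28 in vehicle, and their median difference moved from -1.42 to -0.14 without that array. Granulosa and luteal markers were measured for 6 of 10 genes, with a median of -0.41 that was 0.37 on slide 1, -1.19 on slide 2 and -1.66 without AZD1480 replicate 1. The median was -0.43 for endothelial markers (8 of 8 measured), of which 2 were lower at an unadjusted p under 0.05. It was -1.76 for adipocyte markers (5 of 7) and -0.12 for fibroblast markers (9 of 9; -0.01 without AZD1480 replicate 1). The part of tissue makeup in the class II values was not tested.

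Between 66.9% and 76.4% of spots were well above background on an array. Processed intensities were higher on slide 1 than on slide 2, and 46 to 85 spots were saturated on slide 1 arrays and 0 on slide 2, none of them a class II probe. The number of arrays limits the precision.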

How the data were processed

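Per the submitters' processing notes, Agilent Feature Extraction 9.5.3 was the software used on the scans. Each spot, per the file headers, has a raw intensity and a processed intensity, the latter background-subtracted and detrended but unscaled between arrays. A log2 value table deposited by the authors (column median 8.36) was an alternative only, and the origin of its offset is not given in the labels. Class II genes, gene lists and tests were chosen with earlier results of these data known.

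Spots flagged as outliers and control spots were left out, spots of a probe were averaged, and log2 processed intensities were scaled to the 75th percentile of each array. Probes well above background on at least 4 of 8 arrays were kept, and the brightest of them stood for its gene. That gave 19778 genes, 4664 with more than 1 kept probe. Gene names differ between the files of the slides for 6672 of 39429 probes; those of slide 1, updated by RefSeq accession, were used, and member probes were taken from either. The comparison used limma 3.58.1 under R 4.3.3 (lmFit, eBayes, two-sided; Benjamini-Hochberg over all genes, threshold 0.05), with treatment as the only term, checked on simulated data. Single genes also had an exact permutation test. Named genes are the class II genes, up to 3 per list by smallest p plus others listed by name, and those most like the mean class II profile (8, and 5 with group means subtracted); some of these are not reported here. Promoters are RefSeq's (GRCm38.p6); no coordinates were converted between builds. Alternatives were background correction, scaling, filters, probe choice, the authors' table, slide, array weights and leaving out arrays.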

Additional observations from a re-analysis of the deposited data

Results flagged for a closer look

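In 1 of 18 groups tested (9 class II genes in 2 groups of 4), a single array stood apart from the other 3. It was H2-Oa in AZD1480 replicate 1, at -7.47, where the nearest array of its group was at -4.63. The gap was 0.881 of the group's range, above Dixon's critical value for 4 values, which chance exceeds in about 1 of 20 groups. That array was not well above background for H2-Oa.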

How the results depend on the processing

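No gene passed the adjusted threshold under any of the alternatives run. The lowest adjusted p over all genes was 0.0638, without AZD1480 replicate 1, and genes at an unadjusted p under 0.05 numbered 446 to 1611, the most without AZD1480 replicate 3 (689 with all arrays), with 1084 under array weights. Of 197 class II differences over the alternatives, 177 were below 0. The number of class II genes below 0 was 5 of 9 on slide 2 alone, 5 without vehicle replicate 1 and 3 without replicate 1 of both groups, where the median was 0.30 (the last chosen after seeing the data); leaving out arrays it ranged from 3 to 9 and the median from -0.85 to 0.30. Differences turned above 0 as follows, and the cause was not tested. H2-Oa was 0.02 under normexp background correction and 0.38 under array weights, where H2-Aa was 0.04. On slide 2, H2-Aa was 0.14, H2-Eb1 0.06, H2-Oa 0.42 and Ciita 0.75. Without vehicle replicate 1, H2-Aa was 0.02, H2-Eb1 0.03, Cd74 0.03 and Ciita 0.13. Without AZD1480 replicate 1, H2-Eb1 was 0.01 and H2-Oa 0.43, and without AZD1480 replicate 3 Ciita was 0.19. Without replicate 1 of both groups, H2-Aa was 0.49, H2-Ab1 0.29, H2-Eb1 0.48, H2-Oa 0.60, Cd74 0.40 and Ciita 0.30. H2-DMa, H2-DMb1 and H2-Ob were below 0 under every alternative run, nearest to it, among single arrays left out, at -0.37 for H2-DMa (vehicle replicate 1) and at -0.41 for H2-DMb1 and -0.22 for H2-Ob (AZD1480 replicate 1). H2-Oa could not be tested with a filter on all 8 arrays. With the replicate number as a replicate block, 0 genes passed and 9 class II genes were below 0 (median -0.50); same-numbered arrays deviated together at r = 0.359, 0.356, 0.126 and -0.0592 for replicates 1 to 4, so the numbers were not taken as pairs. Over the alternatives the median of all genes was -0.00868 to 0.0992. Leaving out single arrays, the lowest values were -0.87 for H2-Aa, -0.85 for H2-Ab1, -0.88 for H2-Eb1 and -1.0 for Cd74 (each without vehicle replicate 2), -0.64 for H2-Oa (without AZD1480 replicate 2) and -1.05 for Ciita (without AZD1480 replicate 4). Signal near background limits H2-Oa and H2-DMb2.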

Other observations

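H2-Eb2, a class II beta chain gene outside the 10 described, was well above background on all 8 arrays. It measured -4.57, -4.66, -5.04 and -5.50 in vehicle and -5.01, -5.15, -5.68 and -4.25 in AZD1480, a difference of -0.08. Its values followed those of the Ciita probe at r = 0.92 over the 8 arrays, with AZD1480 replicate 4 highest and AZD1480 replicate 3 lowest for both. The H2-Eb2 probe does not hold the repeat of the Ciita probe. Marchf1, Cd80 and the class I gene H2-Q4 were also highest and lowest on those arrays, so this order was not particular to class II genes.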
